A study of Mus musculus with 8 samples.

Results

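The genes described here are 10 members of the enzymatic antioxidant defence in mouse aorta: the superoxide dismutase genes Sod1, Sod2 and Sod3, catalase (Cat), the glutathione peroxidase genes Gpx1, Gpx3 and Gpx4, Nqo1, Hmox1, and Nfe2l2, which encodes the transcription factor NRF2. Each gene was taken as the assembled locus that carries its name, and as the locus with the most counts where several did. This gave 10 of the 48607 loci in the deposited table, and all 10 were among the 20506 loci tested. Sod2 had 2 further loci, with 6.81% and 3.23% of the counts of its main locus, and Sod3 had 1 with 0.02%.

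Whole aortas of ApoE-/- and NPRC-/-ApoE-/- mice were sequenced after Western diet, which the study's methods give as 12 weeks. Male ApoE-/- mice were bought at 8 weeks of age. The study describes the compared ApoE-/- and NPRC-/-ApoE-/- mice as littermates, and does not restate sex or age for them. All groups lacked ApoE, so the only genotype contrast is the deletion of NPRC, the natriuretic peptide receptor encoded by Npr3, made with CRISPR in the whole animal and so not limited to a cell type. By title, 5 libraries were ApoE-/- and 3 were NPRC-/-ApoE-/-. Each sample also has a genotype field, which matched the title in 4 libraries, ApoE-/- 1, 2 and 3 and NPRC-/-ApoE-/- 3. In the other 4 it gave the opposite: ApoE-/- 4 and 5 were entered as Nprc-/-Apoe-/-, and NPRC-/-ApoE-/- 1 and 2 as Apoe-/-. Each result was therefore computed by title and again by genotype entry, with 5 libraries against 3 in both cases, and libraries are named by title. Nothing in the labels numbers the mice, so p-values measure the spread between these libraries.

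The total count per library was 62969165 to 86693276, and no pair of libraries agreed within sampling noise. FPKM of Npr3, the targeted gene, was 0.62 to 1.69 in the libraries titled ApoE-/- and 1.13 to 1.39 in those titled NPRC-/-ApoE-/-, so its level did not separate the groups and did not settle which label applies. A small deletion that shifts the reading frame need not remove the RNA. Markers of smooth muscle, endothelium, fibroblasts, macrophages and white and brown fat were present in every library. By title, edgeR's quasi-likelihood test left 0 loci under 0.05 after Benjamini-Hochberg adjustment (smallest adjusted p-value 0.0525), and 2797 before it. By genotype entry these counts were 0 and 269. After adjustment DESeq2 kept 627 loci by title, and limma kept 2.

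Superoxide formed in the vessel wall is converted to hydrogen peroxide by the superoxide dismutases, which sit in the cytosol (Sod1), in mitochondria (Sod2) and outside the cell (Sod3). Hydrogen peroxide is then removed by catalase, mostly in peroxisomes, and by peroxidases that use glutathione or thioredoxin. NRF2 is held down by Keap1 and, once released, pairs with small Maf proteins and binds antioxidant response elements in genes such as Nqo1, Hmox1, Prdx1 and Txnrd1, while Bach1 competes for the same elements.

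The antioxidant response element core, TGACNNNGC, was searched on both strands in promoter sequences of RefSeq, build GRCm38.p6, which span 250 bases before to 50 bases after each start. The table holds such a sequence for 8 of the 10 genes, without Sod3 and Hmox1. The core occurred in 2 of these 8, Nfe2l2 and Sod1, and in 15 of 46 other genes of the pathway list that have a window (32.6%), against 14% of all 27025 genes in the table. The 4 sequences below are the matches of these members and of Prdx1 and Blvra, the other matched genes whose fold change is described further on. Each is written 5′ to 3′ in the direction of the gene with the core in capitals. In Sod1, Prdx1 and Blvra the core lies on the opposite strand and so reads GCNNNGTCA.
Nfe2l2, chr2:75704865-75704913, minus strand: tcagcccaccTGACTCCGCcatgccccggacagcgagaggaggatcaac
Sod1, chr16:90220676-90220744, plus strand: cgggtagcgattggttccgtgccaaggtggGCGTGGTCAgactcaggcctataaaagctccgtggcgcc
Prdx1, chr4:116685436-116685504, plus strand: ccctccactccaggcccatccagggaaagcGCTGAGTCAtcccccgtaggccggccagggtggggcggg
Blvra, chr2:127070578-127070646, plus strand: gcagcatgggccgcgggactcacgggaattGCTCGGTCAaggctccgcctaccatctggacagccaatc
The core ends 231 bases before the start in Nfe2l2, 47 in Sod1, 124 in Prdx1 and 40 in Blvra. Of these 4, the one in Prdx1 overlaps the AP-1 motif TGACTCA (read as TGAGTCA on this strand), so the letters do not separate the motifs. A match describes the letters and is not evidence of binding.

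By title, 7 were lower and 3 higher in NPRC-/-ApoE-/- by the sign of edgeR's log2 fold change. The median log2 fold change was -0.17, beside -0.01 over all tested loci. Hmox1 was the 1 gene of the 10 that had an unadjusted p-value under 0.05, on the lower side. Among all tested loci 7.13% were lower and 6.51% higher with such a p-value, so 1 of 10 is near the share of any genes. No member had libraries without overlap between the titled groups, as 4.37% of all loci did on the lower side and 2.88% on the higher side. By genotype entry, 4 genes were lower and 6 higher, and Nfe2l2 (lower) and Sod2 (higher) had an unadjusted p-value under 0.05, where 0.697% and 0.614% of all loci had one. With edgeR 0 of the 10 had an adjusted p-value under 0.05 under either label, and with DESeq2 by title 1 had, Hmox1.

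**Figure D1:**
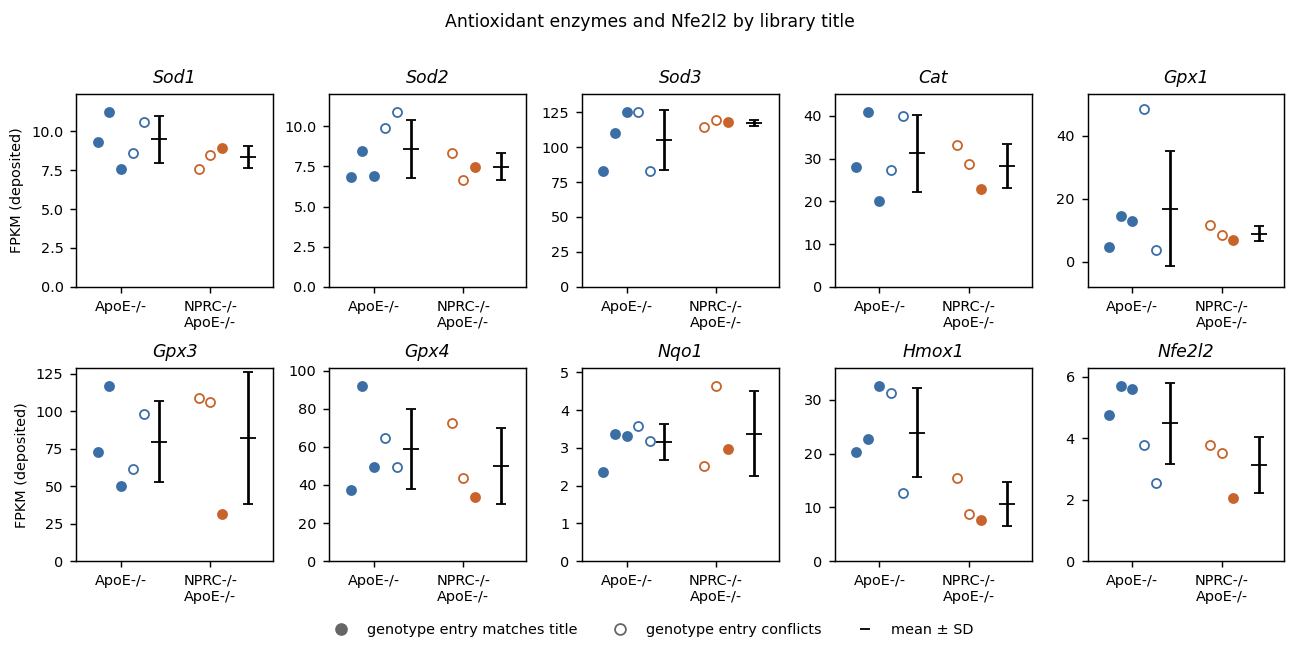
FPKM (vertical axis, deposited values) of the 10 genes in the 5 libraries titled ApoE-/- (blue) and the 3 titled NPRC-/-ApoE-/- (orange), with the mean ± SD of each titled group beside them. Open circles are the 4 libraries whose genotype entry conflicts with the title, and the titled groups overlap for every gene.

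Hmox1 encodes heme oxygenase 1, which breaks down heme to biliverdin, carbon monoxide and iron, and is abundant in macrophages that take up red cells. It lies on chromosome 8 from 75093621 to 75100589 on the plus strand (GRCm38). Its FPKM was 20.4, 22.7, 32.6, 31.2 and 12.7 in ApoE-/- 1 to 5, and 15.4, 8.79 and 7.74 in NPRC-/-ApoE-/- 1 to 3. The 4 highest values were all in libraries titled ApoE-/-, and ApoE-/- 5 lay between the libraries titled NPRC-/-ApoE-/-. The group means were 23.9 ± 8.20 (SD, n = 5) and 10.6 ± 4.14 (SD, n = 3), and the log2 fold change was -1.18 (SE 0.37, 95% interval -2.02 to -0.34), which is 0.442-fold. Its adjusted p-value was 0.285 with edgeR's quasi-likelihood test (unadjusted 0.0114) and ranged from 0.0464 with DESeq2 to 0.755 over the alternatives by title.

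The direction of Hmox1 held for every alternative, and the unadjusted p-value was under 0.05 in 17 of the 18 fits that give one. The exception was the genotype entry, for which the log2 fold change was -0.18 (SE 0.52, 95% interval -1.37 to 1.00, unadjusted p-value 0.736 in the same edgeR fit). With that label, the highest pair of libraries, ApoE-/- 3 and 4, fell into opposite groups, and so did the lowest pair, NPRC-/-ApoE-/- 2 and 3.

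Macrophage markers varied together with Hmox1. The summed FPKM of 10 markers (Cd68, Adgre1, Csf1r, Lyz2, Itgam, C1qa, Mrc1, Trem2, Gpnmb and Cd14) was 1072, 1373, 2151, 2239 and 758 in ApoE-/- 1 to 5, and 1139.8, 488 and 384 in NPRC-/-ApoE-/- 1 to 3. Lyz2 made up 66.4% of this sum, and none of the markers was at 0. By title 10 of the 10 were lower in NPRC-/-ApoE-/-, 4 of them with an unadjusted p-value under 0.05 and 0 after adjustment with edgeR. Of all tested loci 7.13% were lower with such an unadjusted p-value. The 3 libraries with the lowest Hmox1 were also the 3 with the lowest macrophage sum, in the same order, and the 2 highest were the same 2 libraries. The order within the highest pair was reversed, as was that of ApoE-/- 1 and NPRC-/-ApoE-/- 1. This was not particular to macrophages. The sum of fibroblast markers was also lowest in NPRC-/-ApoE-/- 2 (477) and 3 (610) and ApoE-/- 5 (721). It was highest in ApoE-/- 4 (1443) and 3 (1526), in the order of Hmox1. Hmox1 amounted to 13.9 to 19.0 FPKM per 1000 FPKM of macrophage markers in the libraries titled ApoE-/-, and to 13.5 to 20.2 in those titled NPRC-/-ApoE-/-. The part of the macrophage or fibroblast content in the Hmox1 values was not tested. In whole aorta fewer cells of a type cannot be told apart from less RNA per cell.

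Other cell types moved by title as well. The summed FPKM of 10 smooth muscle markers was 1371 to 1827 against 1773 to 3029.5, and 10 of 10 were higher in NPRC-/-ApoE-/-, 9 with an unadjusted p-value under 0.05. That of 8 fibroblast markers was 721 to 1526 against 477 to 873, with 8 of 8 lower and 2 with such a p-value. The 9 endothelial markers summed to 98.4 to 109.9 against 93.3 to 105, with 6 lower and 3 higher, and 1 of the higher had such a p-value. Among all tested loci 6.51% were higher and 7.13% lower by title with an unadjusted p-value under 0.05. After adjustment with edgeR 0 smooth muscle, fibroblast or endothelial markers were under 0.05. By genotype entry no marker of these lists or of the macrophage list had an unadjusted p-value under 0.05.

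**Figure D2:**
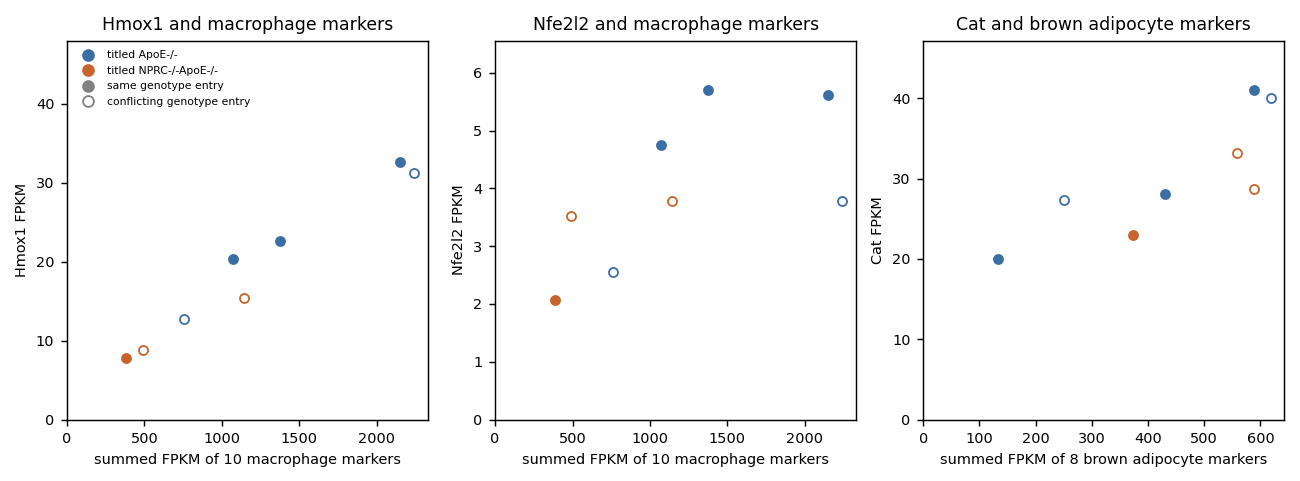
FPKM of Hmox1, Nfe2l2 and Cat (vertical axes) against the summed FPKM of 10 macrophage or 8 brown adipocyte markers (horizontal axes) in the 8 libraries, coloured by title and open where the genotype entry conflicts. Hmox1 is lowest in the 3 libraries with the lowest macrophage sum and highest in the 2 with the highest, while Nfe2l2 in ApoE-/- 4 is 3.78 at the highest macrophage sum.

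The loci closest to Hmox1 in pattern were measured by the root mean square difference of centred log2 CPM over the 8 libraries. Among 18477 tested loci with 1 gene name they were Dnase2a (0.105), Fermt3 (0.109) and Parvg (0.113). The last 2 encode an integrin adaptor of blood cells (Fermt3) and a parvin found mainly in blood cells (Parvg), and Dnase2a encodes a lysosomal DNase. This larger set of candidates was chosen after seeing that the narrower rule, Ensembl-named loci only, left 67. Among those the closest were Sh2d1b1 (0.176), Rnf180 (0.217) and Panx1 (0.228).

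Nfe2l2 was lower in NPRC-/-ApoE-/- under both labels, and after Hmox1 and Gpx1 it had the largest difference by title. FPKM was 4.75, 5.70, 5.61, 3.78 and 2.55 in ApoE-/- 1 to 5, and 3.79, 3.52 and 2.07 in NPRC-/-ApoE-/- 1 to 3. The 3 highest values were in ApoE-/- 1, 2 and 3, whose labels agree, and the lowest was in NPRC-/-ApoE-/- 3, the other library whose labels agree. ApoE-/- 5 was nearly as low. The titled means were 4.48 ± 1.33 (SD, n = 5) and 3.13 ± 0.93 (SD, n = 3). The log2 fold change was -0.52 by title (SE 0.30, 95% interval -1.20 to 0.16, edgeR unadjusted p-value 0.12, adjusted 0.467) and -0.71 by genotype entry (SE 0.26, 95% interval -1.30 to -0.11, unadjusted 0.0258, adjusted 1).

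Under the alternatives the adjusted p-value of Nfe2l2 by title was 0.194 to 0.839, and its unadjusted p-value was under 0.05 in 4 of 17 fits, the genotype entry among them. Without ApoE-/- 5 the log2 fold change was -0.68 (edgeR unadjusted p-value 0.0174). Over the 4 libraries with matching labels, 3 against 1, it was -1.29, a value without a test. ApoE-/- 4 had the highest macrophage sum and an Nfe2l2 level near those of the libraries titled NPRC-/-ApoE-/-. Per 1000 FPKM of macrophage markers Nfe2l2 amounted to 1.7 to 4.4 by title in ApoE-/- and 3.3 to 7.2 in NPRC-/-ApoE-/-, so this ratio ran to higher values where the FPKM was lower. The part of macrophage content in the Nfe2l2 values was not tested. The Ensembl-named loci closest in pattern were Fancg (0.263), Ccdc126 (0.299) and AC132253 (0.359), and among all loci with 1 gene name Gm44260, Gm43499 (0.167 each) and Gm2412 (0.184), so no well-characterised gene was among the closest of the larger set.

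The Nfe2l2 locus is wider than the gene. It spans chr2:75637988-75704641 on the minus strand, 66654 bases, and is named for Nfe2l2 and Gm24996. The annotated gene (GENCODE M21) takes 29129 bases, from 75675513 to 75704641. Of the 15 transcripts at the locus 12 were assembled by StringTie, and the part outside the gene overlaps Hnrnpa3 on the other strand. The length that the FPKM values divide by was estimated from the counts and FPKM at about 30228 bases, against 2475 bases of the coding transcript. The deposited level of Nfe2l2 is therefore low for its counts, which were 6513 to 16719 per library. All annotated exons of the gene together cover 3796 bases, so most of the length used lies outside them. Whether reads from outside these exons entered the counts, and so the fold changes, was not tested.

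Sod3, the secreted superoxide dismutase bound to the extracellular matrix of the arterial wall, was the most abundant of the 10 by FPKM. It was 82.7, 109.96, 125, 125 and 82.8 in ApoE-/- 1 to 5, and 115, 119 and 118 in NPRC-/-ApoE-/- 1 to 3. The libraries titled NPRC-/-ApoE-/- lay close together and inside the range of the ApoE-/- libraries. Its log2 fold change was 0.16 (SE 0.22, 95% interval -0.33 to 0.65, edgeR adjusted p-value 0.761), and 0.02 by genotype entry.

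Sod1, the cytosolic copper and zinc enzyme, varied least among the 10, with a coefficient of variation of 14.7% over the 8 libraries. Its FPKM was 7.57 to 11.3 (median 9.32) by title in ApoE-/- and 7.54, 8.50 and 8.95 in NPRC-/-ApoE-/-. The log2 fold change was -0.15 (SE 0.14, 95% interval -0.47 to 0.16, edgeR adjusted p-value 0.642). By genotype entry the sign was opposite (0.12, SE 0.15), and both intervals include 0.

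Sod2, the mitochondrial manganese enzyme, turned with the label. FPKM was 6.81, 8.45, 6.92, 9.90 and 10.9 in ApoE-/- 1 to 5, and 8.31, 6.65 and 7.46 in NPRC-/-ApoE-/- 1 to 3. The highest pair, ApoE-/- 4 and 5, are libraries entered as Nprc-/-Apoe-/-. By title the log2 fold change was -0.18 (SE 0.18, edgeR adjusted p-value 0.68), and by genotype entry it was 0.37 (SE 0.15, 95% interval 0.03 to 0.71, unadjusted 0.0355, adjusted 1). Sod2 was the only one of the 10 with an unadjusted p-value under 0.05 in a direction that the title reversed.

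Cat, which splits hydrogen peroxide in peroxisomes, was 28.1, 41.0, 20.1, 27.4 and 40.1 FPKM in ApoE-/- 1 to 5, and 33.2, 28.7 and 22.9 in NPRC-/-ApoE-/- 1 to 3. The 3 libraries titled NPRC-/-ApoE-/- all fell inside the range of the others. Its log2 fold change was -0.12 (SE 0.21, 95% interval -0.60 to 0.36, edgeR adjusted p-value 0.828) by title and 0.02 by genotype entry. Cat was lowest in ApoE-/- 3 and highest in ApoE-/- 2 and 5, and these were also the libraries with the lowest sum and the 2 highest sums of 8 brown adipocyte markers, led by Ucp1. NPRC-/-ApoE-/- 2 had a sum level with that of ApoE-/- 2 (588 and 589 FPKM) but a Cat level of 28.7 against 41.0. That sum was 133 to 618 FPKM by title in ApoE-/- and 373 to 588 in NPRC-/-ApoE-/-, with 8 of 8 markers higher by title in NPRC-/-ApoE-/- and 0 with an unadjusted p-value under 0.05. Per 1000 FPKM of these markers Cat amounted to 64.8 to 151 by title in ApoE-/- and 48.7 to 61.6 in NPRC-/-ApoE-/-. These ranges do not overlap, whereas those of Cat itself do, so the separation appears only after division by this sum. By genotype entry the groups overlapped, at 48.7 to 151 in Apoe-/- and 61.6 to 109 in Nprc-/-Apoe-/-. The share of all loci without overlap in such a ratio was not computed. Other marker lists followed Cat in part. The white adipocyte sum was lowest in ApoE-/- 3 (100 FPKM) and highest in ApoE-/- 2 (412), with 198 in NPRC-/-ApoE-/- 2. It was higher in NPRC-/-ApoE-/- 1 (296) than in ApoE-/- 5 (281), unlike Cat. The erythroid sum was highest in ApoE-/- 2 and 5 (1804 and 876 FPKM), but lowest in NPRC-/-ApoE-/- 2 (112). The part of brown fat, white fat or red cells in the Cat values was not tested.

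Gpx3, the plasma glutathione peroxidase made by kidney and fat, had no direction that lasted. FPKM was 72.5, 117, 50.04, 61.5 and 98.0 in ApoE-/- 1 to 5, and 109, 106 and 31.7 in NPRC-/-ApoE-/- 1 to 3. The 3 libraries titled NPRC-/-ApoE-/- held the lowest value of all 8 and a pair near the top. The log2 fold change was 0.06 (SE 0.38, 95% interval -0.80 to 0.93, edgeR adjusted p-value 0.961) by title and -0.50 (SE 0.36) by genotype entry. The 2 low libraries ApoE-/- 3 and 4 also had the 2 lowest brown adipocyte sums, while NPRC-/-ApoE-/- 3 did not. Its 85.0 FPKM of Gpx3 per 1000 FPKM of brown adipocyte markers was below the 158 to 377 of the libraries titled ApoE-/-. NPRC-/-ApoE-/- 1 and 2, at 195 and 180, were inside that range.

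Gpx4 reduces lipid hydroperoxides within membranes and protects cells from ferroptosis. It was 37.5, 92.0, 49.7, 64.8 and 49.5 FPKM in ApoE-/- 1 to 5, and 72.5, 43.9 and 33.5 in NPRC-/-ApoE-/- 1 to 3. The highest library was ApoE-/- 2 and the lowest NPRC-/-ApoE-/- 3, and the titled groups overlapped over most of their range. By title the log2 fold change was -0.22 (SE 0.32, 95% interval -0.95 to 0.51, edgeR adjusted p-value 0.782), and -0.23 by genotype entry.

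Gpx1, the cytosolic glutathione peroxidase, spread most. It was 4.73, 14.5, 13.0, 48.3 and 3.58 FPKM in ApoE-/- 1 to 5, and 11.5, 8.37 and 6.81 in NPRC-/-ApoE-/- 1 to 3, a 13.5-fold range that corresponds to 524 to 7631 counts. ApoE-/- 4 stood far above the rest, and its neighbours in the ApoE-/- group ran down to the lowest value of all. The log2 fold change of -0.95 by title (SE 0.80, 95% interval -2.77 to 0.86, edgeR adjusted p-value 0.611) became 0.02 without ApoE-/- 4, and was 0.97 by genotype entry, where ApoE-/- 4 is in the other group. The locus spans chr9:108208790-108340343, 131554 bases where the annotated gene has 1441, and runs across neighbouring genes. Of its 5 transcripts 1 was assembled by StringTie, and whether reads of the neighbours entered its count was not tested. The closest locus in pattern was Rpl27-ps3, at 0.374.

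Nqo1, the quinone reductase often taken as an indicator of NRF2 activity, was the least abundant. FPKM was 2.35, 3.37, 3.31, 3.57 and 3.17 in ApoE-/- 1 to 5, and 2.51, 4.64 and 2.98 in NPRC-/-ApoE-/- 1 to 3. The highest library was NPRC-/-ApoE-/- 2 and the other 2 of that group were inside the range of ApoE-/-. Its log2 fold change was 0.11 (SE 0.24, 95% interval -0.44 to 0.66, edgeR adjusted p-value 0.86) by title, -0.14 without NPRC-/-ApoE-/- 2, and 0.03 by genotype entry. Hmox1 and Nqo1, both known targets of NRF2, therefore had fold changes of opposite sign by title, and the difference between them was not tested.

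**Figure D3:**
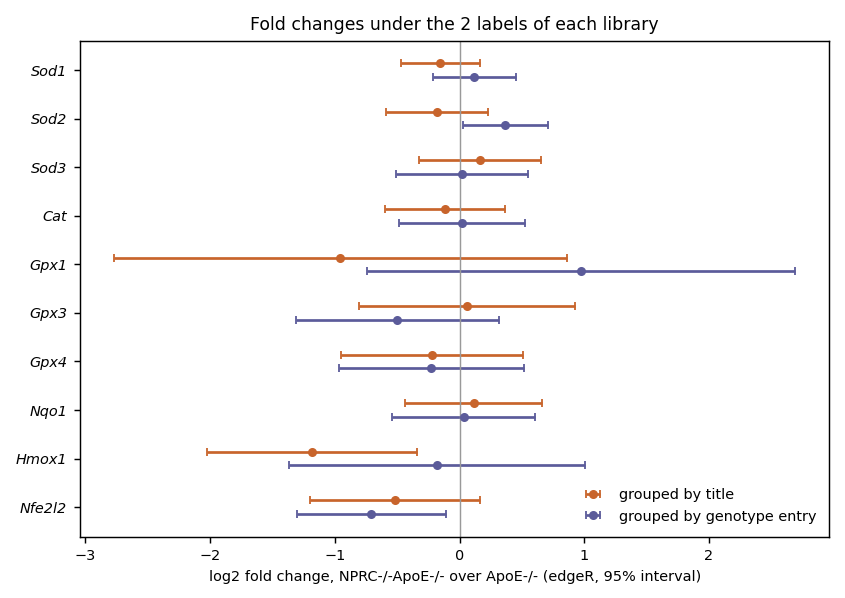
Log2 fold change of NPRC-/-ApoE-/- over ApoE-/- (horizontal axis) with its 95% interval from edgeR for the 10 genes, grouped by title (orange) and by genotype entry (violet). By title the interval of Hmox1 alone stays below 0, and by genotype entry those of Nfe2l2 and Sod2 stay on opposite sides of 0.

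The median spread of the 10 genes over all 8 libraries was above that of all tested loci but inside their quartiles. The median coefficient of variation was 29.0% for the 10 genes and 23.7% for all tested loci (quartiles 15.7% and 35.4%). Sod1, Sod2, Sod3 and Nqo1 were below the median of all loci. Above the upper quartile were Gpx4 (35.6%), Gpx3 (38.7%), Hmox1 (50.2%) and Gpx1 (104%).

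The order of the levels depended on the length used to scale them. The lengths at the loci are estimates, back-calculated from counts and FPKM and divided by 1.201. That is the median ratio of such lengths to annotated exon length at listed loci with 1 name and no assembled transcript. FPKM divides by the exonic bases of the whole assembled locus, which were 1.0 times the longest protein-coding GENCODE transcript for Sod3, Cat and Nqo1, 1.12 for Hmox1, 1.14 for Gpx3, 1.47 for Gpx1, 1.73 for Gpx4 and 1.8 for Sod2. For Sod1 the ratio was 6.19, since 3969 bases were used for a coding transcript of 641, and for Nfe2l2 it was 12.2. As deposited, the mean FPKM over the 8 libraries was 109.7 ± 17.4 (SD) for Sod3, 80.7 ± 31.2 for Gpx3, 55.4 ± 19.7 for Gpx4, 30.2 ± 7.5 for Cat, 18.9 ± 9.51 for Hmox1, 13.9 ± 14.5 for Gpx1, 9.05 ± 1.33 for Sod1, 8.18 ± 1.55 for Sod2, 3.97 ± 1.32 for Nfe2l2 and 3.24 ± 0.71 for Nqo1. On the length of the coding transcript Sod1 rose to 56.0 ± 8.23, Nfe2l2 to 48.5 ± 16.1, Gpx4 to 96.0 ± 34.2 and Gpx3 to 91.7 ± 35.5, and Sod1 and Nfe2l2 then ranked above Cat, Hmox1 and Gpx1. This assumes that all counts came from that transcript, so each is an upper value. Neighbours within 1 SD of each other on this scale were Sod3, Gpx4 and Gpx3, then Sod1 and Nfe2l2, then Cat, Hmox1, Gpx1 and Sod2. Fold changes do not depend on the length.

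**Figure D4:**
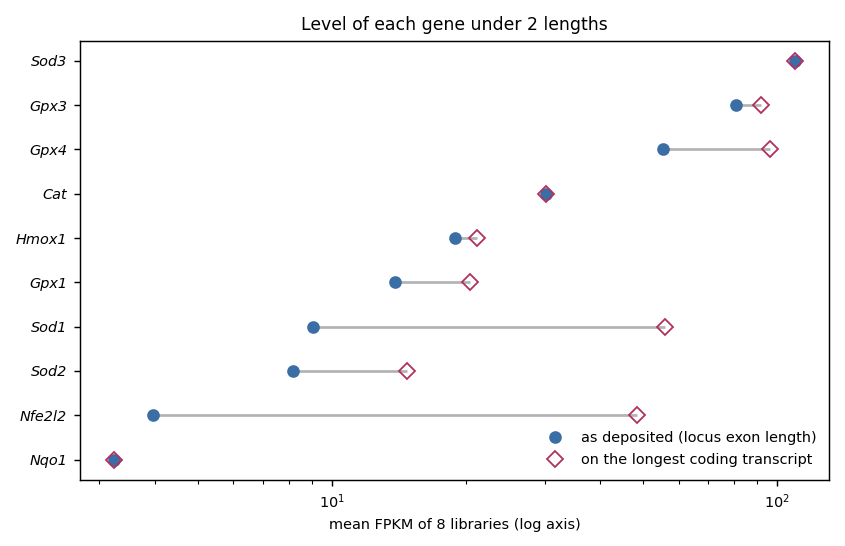
Mean FPKM over the 8 libraries (horizontal log axis) of the 10 genes, as deposited (filled circles) and recomputed on the longest protein-coding transcript (diamonds), in order of the deposited level. Sod1 moves from 9.05 to 56.0 and Nfe2l2 from 3.97 to 48.5, while Sod3, Cat and Nqo1 stay in place.

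Around these genes, 52 other genes of the antioxidant and NRF2 pathway were listed by role, and all 52 were tested. By title 43 were lower and 9 higher in NPRC-/-ApoE-/- by the sign of edgeR's log2 fold change. The median log2 fold change was -0.25, while 50.9% of all tested loci were lower. With an unadjusted p-value under 0.05, 6 (11.5%) were lower and 1 (1.9%) was higher, beside 7.13% and 6.51% of all loci. With edgeR 0 had an adjusted p-value under 0.05 (smallest 0.29). By genotype entry 31 were lower and 21 higher with a median of -0.05, and 0 had an unadjusted p-value under 0.05. The count of 7 changed with the library left out. It was 1 without NPRC-/-ApoE-/- 2 or without NPRC-/-ApoE-/- 3, and 13 without NPRC-/-ApoE-/- 1. It was 4 without ApoE-/- 2 or 3, 3 without ApoE-/- 4, 9 without ApoE-/- 1 and 10 without ApoE-/- 5. Fewer libraries also lower the power of the test.

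Among the 11 genes of the thioredoxin and peroxiredoxin system, 9 were lower by title and 3 of these had an unadjusted p-value under 0.05. Prdx1, which reduces peroxides in the cytosol, was 35.4, 53.4, 56.2, 71.9 and 23.8 FPKM in ApoE-/- 1 to 5, and 32.7, 17.7 and 16.1 in NPRC-/-ApoE-/- 1 to 3. Its log2 fold change was -1.13 (SE 0.40, edgeR adjusted p-value 0.311), the largest of the list. Txn1, the thioredoxin that reduces oxidised proteins and peroxiredoxins, was 34.4, 48.7, 52.1, 60.3 and 31.3 against 32.2, 26.1 and 21.0, a log2 fold change of -0.78 (SE 0.27, edgeR adjusted p-value 0.309). Prdx5, found in mitochondria and peroxisomes, was at -0.47 (SE 0.21, edgeR adjusted p-value 0.364). For Prdx1 and Txn1 the lowest 2 libraries were NPRC-/-ApoE-/- 2 and 3 and ApoE-/- 4 was the highest, as in the macrophage sum. The part of macrophage content in these values was not tested. By genotype entry the log2 fold changes were -0.03 for Prdx1, -0.01 for Txn1 and 0.08 for Prdx5.

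All 5 genes of heme and iron handling were lower by title, with a median log2 fold change of -0.53, and 1 had an unadjusted p-value under 0.05. By genotype entry 3 were lower and 2 higher, with a median of -0.16. The gene with such a p-value by title was Blvra, biliverdin reductase, the step after heme oxygenase. It was 2.67, 2.98, 3.19, 3.58 and 2.69 FPKM in ApoE-/- 1 to 5, and 2.55, 2.03 and 1.90 in NPRC-/-ApoE-/- 1 to 3. Its titled groups did not overlap, which was so for 1 of the 52 genes and for 4.37% of all tested loci on the lower side. The log2 fold change was -0.47 (SE 0.19, 95% interval -0.89 to -0.06, edgeR adjusted p-value 0.328) by title and 0.05 (unadjusted 0.844) by genotype entry. The ferritin subunits Ftl1 (-0.89, SE 0.49) and Fth1 (-0.53, SE 0.32) had unadjusted p-values of 0.105 and 0.127 in the same edgeR fit. Ftl1 was 365, 500.03, 803, 799.9 and 274 FPKM in ApoE-/- 1 to 5, and 516, 205 and 184 in NPRC-/-ApoE-/- 1 to 3. Its 4 lowest libraries were the 4 lowest in the macrophage sum, in the same order, and its highest pair was the highest pair there. The part of macrophage content in this group was not tested. The Ftl1 locus also carries the name Gm22133, and ferritin light chain has many near-identical copies, so its counts are uncertain.

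Of the 9 regulators 7 were lower. Bach1, the repressor that competes with NRF2, had an unadjusted p-value under 0.05, with 5.2, 5.85, 4.93, 5.18 and 3.86 FPKM in ApoE-/- 1 to 5, and 4.25, 2.88 and 2.74 in NPRC-/-ApoE-/- 1 to 3. Its log2 fold change was -0.59 (SE 0.19, edgeR adjusted p-value 0.29). Keap1, which targets NRF2 for degradation, was at -0.17 (SE 0.18) with an unadjusted p-value of 0.363 in that fit. Every library titled NPRC-/-ApoE-/- lay below ApoE-/- 1 to 4 in Bach1, with ApoE-/- 5 in between. The 3 lowest, NPRC-/-ApoE-/- 3 and 2 and ApoE-/- 5, were also the 3 lowest in the macrophage sum, in the same order. They were also the 3 lowest in the fibroblast sum, and the part of either cell type in Bach1 was not tested. By genotype entry the log2 fold change of Bach1 was -0.20 (unadjusted p-value 0.473 in edgeR).

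Of the 6 NADPH supply genes 5 were lower, and Idh1, the cytosolic isocitrate dehydrogenase, had an unadjusted p-value under 0.05 (log2 fold change -0.60, SE 0.24, edgeR adjusted p-value 0.328). By genotype entry its value was 0.38. The single gene of the list that was higher with such a p-value was Abcc1, an exporter of glutathione conjugates, at 0.35 (SE 0.15, edgeR adjusted p-value 0.338). The 6 genes of glutathione supply and the 7 other antioxidant proteins held 5 and 7 lower genes, and 0 with an unadjusted p-value under 0.05. Gclc, the catalytic subunit of the first enzyme of glutathione synthesis, was at -0.03 (SE 0.11, 95% interval -0.29 to 0.22 in edgeR).

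**Figure D5:**
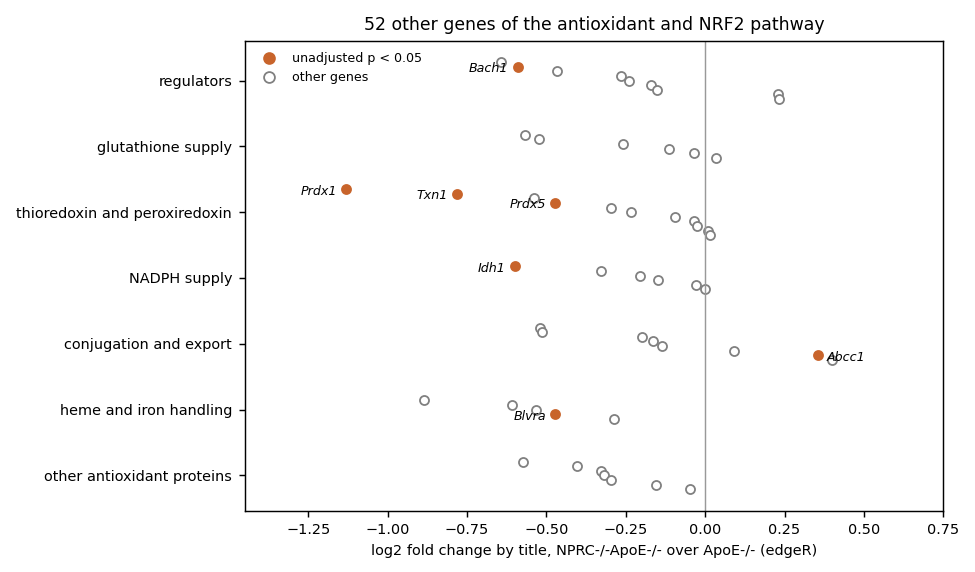
Log2 fold change of NPRC-/-ApoE-/- over ApoE-/- by title (horizontal axis, edgeR) of 52 other genes of the antioxidant and NRF2 pathway, in rows by role. Filled points are the 7 genes with an unadjusted p-value under 0.05, of which Prdx1 at -1.13 is the lowest and Abcc1 at 0.35 is the only one above 0.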

How the data were processed

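Per the study's methods, the authors trimmed the reads, used HISAT2 for mapping and StringTie for assembly. The submitters' processing notes name cutadapt 1.9, FastQC and GRCm38. The deposited table gives a count per assembled locus and library, not normalized, and an FPKM value that the authors scaled by length and mapped fragments. Whether counting used strand is not given in the sources used here. The table had 0 columns without a sample, and 1686 loci without a gene name (0.61% of counts) stayed out of every named result but, as assembled loci, in the tests.

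Loci that reached 1 FPKM in 3 or more libraries entered edgeR 4.0.16 (R 4.3.3, TMM, quasi-likelihood test, Benjamini-Hochberg over 20506 loci). Standard errors are approximate: they were back-calculated from the log2 fold change and the F statistic of the same fit. The 95% intervals were built from these standard errors. The test was checked on simulated data. The 10 genes, the pathway list and the marker lists were chosen with earlier results of these data known. Named genes were all 10 members, the pathway genes with an unadjusted p-value under 0.05 by title, the loci closest in pattern to Nfe2l2 and Hmox1, and Npr3. Keap1, Gclc, Fth1 and Ftl1 were named in addition after their values were seen, as were the patterns closest to Gpx1. Alternatives were DESeq2 1.42.0, limma 3.58.1 on log2(FPKM + 1) and log2(FPKM + 0.1), median-ratio scaling, no filter, a mean of at least 5 FPKM, the genotype entry, only matching labels, the replicate block, and each library left out in turn. The number of libraries limits the precision. The study's methods give 5 libraries per group, of which 8 libraries in all were analysed here.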

Additional observations from a re-analysis of the deposited data

Results flagged for a closer look

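Gpx1 in ApoE-/- 4, at 48.3 FPKM, stood far from the other libraries titled ApoE-/-: its gap to the nearest of them was 0.756 of the range of the group. Of the 20 groups examined (10 genes, by title and by genotype entry, in groups of 5), 1 was marked in this way, and chance marks about 1 in 20.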

How the results depend on the processing

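Of the 178 fold changes of the 10 genes under alternatives, 160 kept the direction by title and 18 did not. By genotype entry the log2 fold changes turned for Cat (0.02), Gpx1 (0.97), Gpx3 (-0.50), Sod1 (0.12) and Sod2 (0.37), an unadjusted p-value under 0.05 was reached by 2 of the 10 genes and by 0 of the pathway list. The replicate numbers of the titles did not pair the libraries: deviations of same-numbered libraries correlated at -0.27, -0.13 and -0.01. With the replicate block (6 libraries) Sod2 was at 0.038, Gpx3 at -0.052, and 2 genes, Hmox1 and Nfe2l2, had such a p-value. The same 6 libraries with no block gave 0.038 for Sod2 and 2 genes as well, and 6 genes of the pathway list in both. Gpx3 was -0.086 with limma at a pseudocount of 1 and -0.090 at 0.1. DESeq2 gave 1 adjusted p-value under 0.05, Hmox1. The libraries with matching labels gave a median of -0.44 over the 10 genes and the other sign for Gpx3 (-1.24), Sod1 (0.019) and Sod2 (0.095), without a test. A mean of at least 5 FPKM left 3 of 31 pathway genes, with fewer genes tested, and dropped Nqo1 and Nfe2l2. Leaving out each library in turn gave -1.22 to 0.017 for Gpx1, -0.18 to 0.44 for Gpx3, -0.14 to 0.30 for Nqo1, 1 to 2 of the 10 genes and 1 to 13 of the pathway list with an unadjusted p-value under 0.05. The cause of these changes was not tested beyond the libraries named. The conflict between labels and the small number of libraries limit every comparison, and no alternative varied the depth.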
